A study of Homo sapiens with 5 samples.

Results

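The genes described here are 10 genes of the aryl hydrocarbon response and of xenobiotic metabolism, out of 61220 annotated genes in the tables. They are AHR, AHRR, TIPARP, CYP1A1, CYP1B1, CYP2S1, GSTP1, GSTM3, GSTA4 and EPHX1. They were chosen by symbol for their place in the pathway, with earlier results of these data known. The reads of every transcript that GENCODE v44 assigns to a gene were summed. Their level was measured in 5 long-read cDNA libraries made from RNA of NCI-H1975 and HCC827, both established human lung adenocarcinoma cell lines that carry no treatment in the labels. By the labels, NCI-H1975 RNA carried sequins (synthetic spike-in RNAs) of mix A and HCC827 RNA sequins of mix B. From each line 1 RNA preparation was used. The 2 RNAs were combined by mass so that HCC827 gave 0, 25, 50, 75 or 100% of the total, with 1 library per mixture. Libraries are named by their NCI-H1975:HCC827 percentages, from 100:0 to 0:100. A test on this series therefore compares 2 RNA preparations and measures scatter about the mixing trend, not variation between cultures.

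AHR is a transcription factor that waits in the cytosol with HSP90 and the cochaperone p23 (PTGES3). When it binds a planar aromatic ligand, such as the combustion products in tobacco smoke that reach the airway, it enters the nucleus, pairs with ARNT and binds the xenobiotic response element. Its targets include the cytochrome P450s CYP1A1 and CYP1B1, which oxidise the ligand, and AHRR and TIPARP, which restrain the receptor. The epoxides and other electrophiles that P450s produce are hydrolysed by EPHX1, the microsomal epoxide hydrolase, or joined to glutathione by transferases such as GSTP1, GSTM3 and GSTA4.

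The core of the xenobiotic response element is GCGTG, and promoters (250 bases before to 50 after a gene start) are available in RefSeq for 9 of the 10 genes, in GRCh38.p14 coordinates. CYP1B1 had no entry. The 5 letters, searched on both strands, stood in at least 1 promoter of 6 of those 9 genes, namely AHR, AHRR, TIPARP, CYP1A1, GSTM3 and EPHX1. They stood in 7 of the 14 promoters of these genes (50.0%) and in 36.5% of all 35116 promoters in the table. The windows of the receptor's own targets are shown because the level of these targets is the readout of the pathway. Each runs 5′ to 3′ on the gene's strand with the core in capitals, and CACGC is the core on the opposite strand.
CYP1A1, chr15:74725561-74725605, minus strand: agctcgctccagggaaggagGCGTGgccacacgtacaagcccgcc
AHRR first start, chr5:321664-321708, plus strand: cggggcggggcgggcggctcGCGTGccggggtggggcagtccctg
AHRR second start, chr5:322548-322592, plus strand: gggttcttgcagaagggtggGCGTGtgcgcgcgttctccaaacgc
TIPARP upstream core, chr3:156674362-156674406, plus strand: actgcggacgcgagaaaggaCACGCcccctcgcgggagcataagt
TIPARP nearer core, chr3:156674428-156674472, plus strand: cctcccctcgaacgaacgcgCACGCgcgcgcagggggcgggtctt
The core began 57 bases before the start of CYP1A1, 30 and 42 bases before the AHRR starts as shown, and 208 and 142 bases before the first TIPARP start. The second AHRR promoter held another core 247 bases before its start, at the edge of the available sequence, which is not shown. A match of 5 letters describes the sequence and does not mark a bound site.

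Libraries held from 2932250 to 4058751 reads, and 98.3% to 98.7% of them fell in annotated genes. Both of the following library properties ran with the mixing ratio: the mean length of the assigned transcripts went from 2581 bases at 100:0 to 2180 at 0:100, and mitochondrial transcripts from 5.65% to 8.85% of reads. Sequin reads fell with the NCI-H1975 share, from 5475 at 100:0 through 4678, 2830 and 1269 to 0 at 0:100. The label of the 0:100 library gives mix B, of which no read was thus seen there. All 8 markers fixed for lung adenocarcinoma epithelium had reads, and their summed level went from 5530 to 16034 TMM-scaled CPM (reads scaled to a common library size). Most of this sum came from the keratins KRT7, KRT8, KRT18 and KRT19. EPCAM was flat (slope 0.024, edgeR adjusted p = 0.882), and SFTPB had at most 17 reads in any library. NAPSA was near absent at 100:0, with 7 reads against 690 at 0:100. Of the 3 leukocyte markers, PTPRC and CD3E had 0 reads in all 5 libraries and CD68, a lysosomal protein, rose from 56.6 to 94.5 CPM (slope 0.80, edgeR adjusted p = 0.000599). The 3 squamous markers together went from 31.8 to 8.56 CPM, nearly all from TP63, which fell (slope -1.40, edgeR adjusted p = 0.00372). The endothelial markers had at most 4 reads in any library. DCN had 0 reads, and the 4 fibroblast markers together went from 185 to 7.07 CPM, nearly all from COL1A1 and COL1A2. Their part in the results below was not tested.

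Together the 10 genes held 24932 reads, of which GSTP1 gave 80.1%. Levels are in CPM after TMM scaling, and counting intervals are 95% Poisson intervals. A slope here means the log2 change that the fit gives between pure NCI-H1975 and pure HCC827 RNA. It was tested with the edgeR quasi-likelihood method, and p-values were adjusted over all 13492 genes with at least 10 reads in at least 2 libraries. A gene passed at an adjusted p under 0.05. Of the 10 genes, 8 were tested and 2, AHRR and CYP1A1, had too few reads. Of the 8, 3 rose with HCC827 (CYP2S1, GSTP1 and EPHX1), 2 fell (CYP1B1 and AHR) and 3 did not pass (TIPARP, GSTM3 and GSTA4). Over all genes tested, 45.8% passed, 23.5% rising and 22.3% falling, so many genes separated these RNAs.

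**Figure D1:**
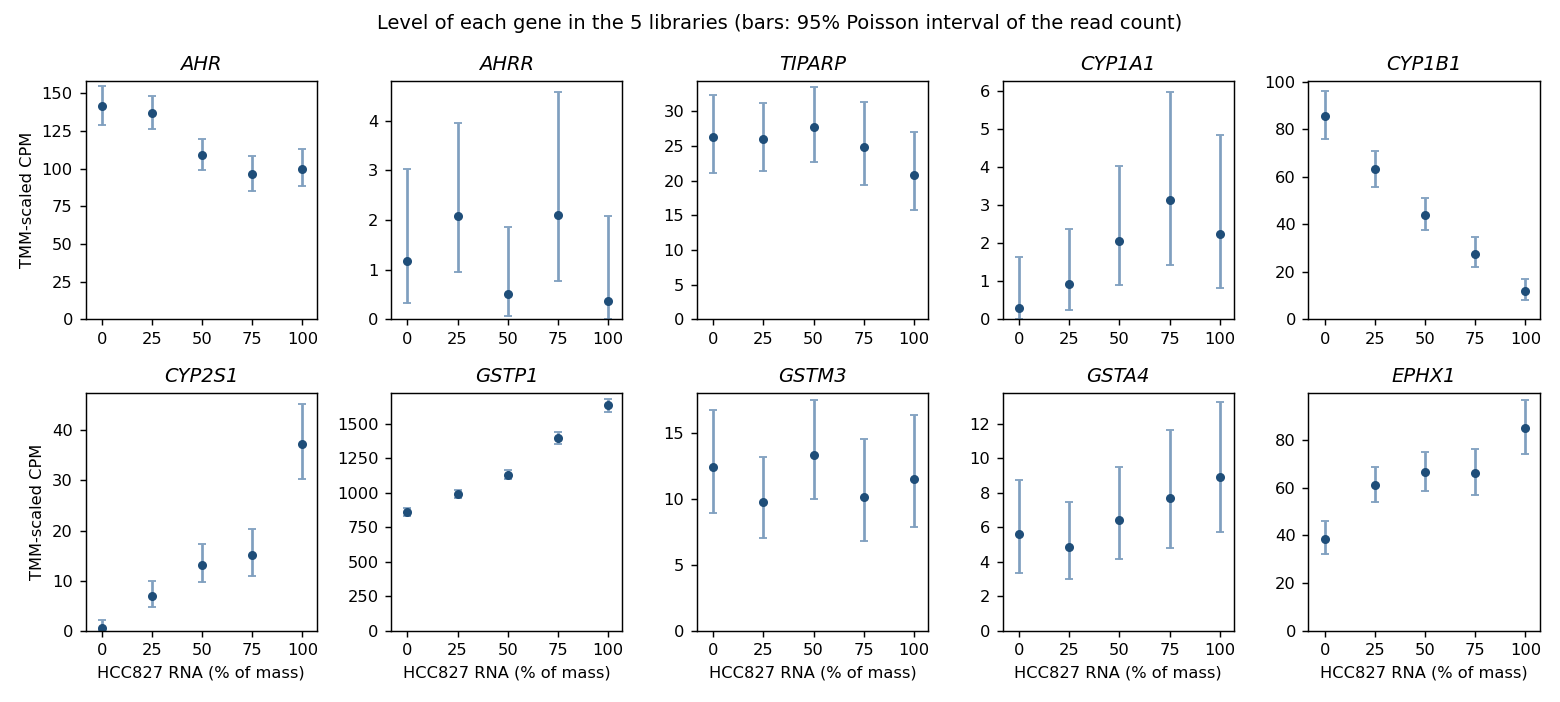
TMM-scaled CPM (y axis, linear, from 0) of each of the 10 genes against the HCC827 share of RNA mass (x axis, %), 1 point per library with the 95% Poisson interval of its read count. CYP1B1 ran down from 85.5 to 11.9 CPM and CYP2S1 up from 0.590 to 37.2, while AHRR and CYP1A1 stayed under 3.2 CPM in every library.

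The receptor itself was abundant in both lines and modestly lower in HCC827. AHR (ENSG00000106546.14, chromosome 7, 16916359 to 17346152, plus strand) had 480, 591, 425, 275 and 269 reads from 100:0 to 0:100. These were 142, 137, 109, 96.2 and 100 CPM, so the 2 libraries richest in NCI-H1975 were high and the 2 richest in HCC827 were low and alike. The pure libraries differed 1.41-fold (95% interval 1.22 to 1.65, counting error only). AHR fell (fitted slope -0.61, SE 0.14, edgeR adjusted p = 0.00303). The call was lost when the 2 libraries richest in each line were compared as groups, called 2 against 2 here (-0.51, edgeR adjusted p = 0.0527). A 2 against 2 value is the log2 difference between groups of libraries. It spans less than the range between pure RNAs and is not on the scale of a slope. The call was also lost when the trend of slopes on transcript length was removed (-0.31, edgeR adjusted p = 0.082, an alternative added after the data were seen). AHR reads came from transcripts averaging 6175 bases, and the trend over all genes at that length had a slope of -0.30. Scaling by library totals gave -1.02 for AHR. The part of length in the result was not tested beyond these fits.

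Of the 5 AHR transcripts with reads, 3 were tested, and their shares of the gene's reads showed no order along the series. The protein-coding AHR-206 took 39.4% at 100:0 and 37.5% at 0:100. AHR-201, also protein-coding, took 38.3% at both ends. AHR-202, annotated for nonsense-mediated decay, took from 21.9% to 26.6% over the 5 libraries. AHR-206 fell by 0.84 and AHR-201 by 0.63 on the log2 scale (adjusted p = 0.00302 and 0.021), and AHR-202 had a slope of -0.47 (adjusted p = 0.0935).

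The 2 repressors of the receptor were low or flat. AHRR, the AHR repressor, which competes for ARNT (ENSG00000063438.20, chromosome 5, 321714 to 438291), had 4, 9, 2, 6 and 1 reads, or 0.372 to 2.10 CPM. Neighbouring libraries alternated between high and low values, and all 5 counting intervals overlapped. The readthrough gene PDCD6-AHRR had 1 read in all. Without the read filter its slope was -0.80 ± 1.14 (SE, adjusted p = 0.694), so no difference was detectable at this depth.

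TIPARP (ENSG00000163659.13, chromosome 3, 156673235 to 156706770) encodes a mono-ADP-ribosyltransferase that modifies AHR and is itself induced by it. It had 89, 112, 108, 71 and 56 reads, and 26.2, 26.0, 27.7, 24.8 and 20.8 CPM. The counting intervals of all 5 libraries overlapped. Its slope was -0.27 ± 0.23 (SE, adjusted p = 0.363), and it passed only when libraries were scaled by totals alone (-0.67, adjusted p = 0.0251), a setting that moved the median slope of all genes from -0.035 to -0.44. TIPARP-AS1 overlaps the gene by 1212 bases on the opposite strand and had 150 reads. No source used here says whether counting kept the strand. All 7 TIPARP transcripts had reads, and TIPARP-201 was the largest, with 46.1% of the gene's reads at 100:0 and 57.1% at 0:100.

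Of the 3 P450s, CYP1B1 was higher in NCI-H1975, CYP2S1 was higher in HCC827, and CYP1A1 had too few reads for the test. CYP1B1 oxidises polycyclic hydrocarbons and oestrogens outside the liver and was the most abundant of the 3 P450s in NCI-H1975. It lies at chromosome 2, 38066973 to 38109902, minus strand (ENSG00000138061.12). Its reads numbered 290, 272, 171, 79 and 32 from 100:0 to 0:100. In CPM these were 85.5, 63.1, 43.9, 27.6 and 11.9, each library lower than the one before, with no overlap between neighbouring counting intervals. The 100:0 library was 7.18-fold above the 0:100 library (95% interval 4.97 to 10.7). CYP1B1 fell (fitted slope -2.52, SE 0.23, edgeR adjusted p = 6.04e-06), and it passed under all 13 alternatives run. Their slopes ran from -2.93 to -2.12, and the 2 against 2 group difference was -1.90. The transcript CYP1B1-205 held from 96.5% to 100% of the reads in each library. CYP1B1-AS1 and RMDN2, which overlap it on the opposite strand, had 22 and 37 reads against its 844.

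CYP1A1, the enzyme most used as a reporter of an active receptor, was near the limit of detection in both lines. The gene (ENSG00000140465.15, chromosome 15, 74719542 to 74725536, minus strand) had 1, 4, 8, 9 and 6 reads. This was 0.295 to 3.15 CPM, lowest at 100:0 and highest at 25:75. The ratio of 0:100 to 100:0 was 7.57 with a counting interval of 0.919 to 348, which spans no difference. Without the read filter the slope was 2.28 ± 1.03 (SE, edgeR adjusted p = 0.0948). In 100:0 RNA the level of CYP1B1 was thus 85.5 CPM from 290 reads where CYP1A1 had 1 read. The liver-type relative CYP1A2 had 1 read in all libraries together.

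CYP2S1, a P450 of epithelia outside the liver, had the largest slope of the 8 genes. It lies at chromosome 19, 41193210 to 41207539, plus strand (ENSG00000167600.14). Reads numbered 2, 30, 51, 43 and 100, and levels were 0.590, 6.96, 13.1, 15.0 and 37.2 CPM. The pure libraries lay far apart, while the interval of the 50:50 library overlapped those of both other mixed libraries. The 0:100 library was 63.1-fold above the 100:0 library (95% interval 17.0 to 528), a ratio resting on 2 reads, or 42.1-fold with that count taken at 3. CYP2S1 rose (fitted slope 3.74, SE 0.48, edgeR adjusted p = 5.51e-05) and passed under all 12 alternatives that could test it. It had too few reads at 100:0 to be tested where every library needed at least 10. CYP2S1-201 held all but 1 of its 226 reads.

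The mixed libraries show whether these differences follow the mixing. A position of 0% is the level at 100:0 and 100% the level at 0:100. It was computed for genes at least 2-fold apart with at least 50 reads over the pure libraries, which CYP1B1, CYP2S1 and EPHX1 met. Over the 2909 such genes, median positions were 27.6% at 75:25, 47.3% at 50:50 and 71.2% at 25:75. CYP1B1 lay at 30.5%, 56.5% and 78.6%, and the counting interval of its mixed library held the median each time. CYP2S1 lay lower, at 17.4%, 34.2% and 39.5%. At 25:75 its interval ran from 28.1% to 53.7%: it had 43 reads, where the median position corresponds to 76.2. The value was inside the 5th to 95th percentile range of all such genes there, 35.7% to 99.8%. EPHX1 lay at 48.4% at 75:25, above the median, then at 60.4% and 59.5%. These intervals cover the count of the mixed library only and not the counts of the pure ones.

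**Figure D2:**
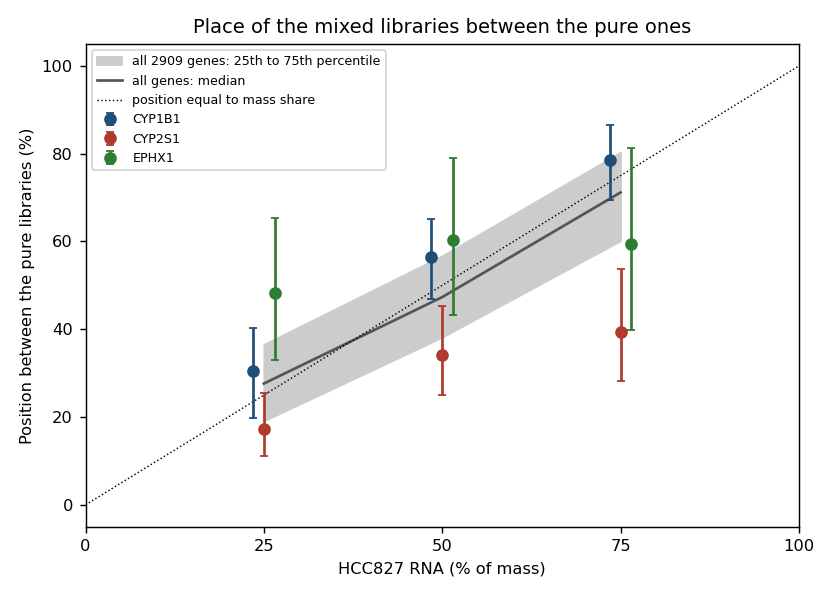
Position of each mixed library between the pure libraries (y axis, %) against the HCC827 share of RNA mass (x axis, %) for CYP1B1, CYP2S1 and EPHX1, with 95% intervals from the mixed library's count. The grey band and line give the 25th to 75th percentile and median of 2909 genes, and CYP2S1 at 25:75 lies at 39.5% against a median of 71.2%.

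GSTP1, the pi-class transferase that dominates glutathione conjugation in lung, was the most abundant of the 10 genes in every library. The gene (ENSG00000084207.18, chromosome 11, 67583742 to 67586656, plus strand) had 2914, 4276, 4399, 3983 and 4387 reads. Its levels were 859, 991, 1130, 1393 and 1633 CPM, in order along the series with no overlap between counting intervals. The 0:100 library was 1.90-fold above the 100:0 library (95% interval 1.81 to 1.99). GSTP1 rose (fitted slope 0.94, SE 0.10, edgeR adjusted p = 1.54e-05) and passed under all 13 alternatives run. Scaling by library totals gave a slope of 0.53, and removal of the length trend gave 0.65.

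The reads of GSTP1 fell mainly on 3 transcripts. GSTP1-202 is the full-length coding form of 210 codons. GSTP1-201 starts 70 bases upstream and lacks exon 6 of GSTP1-202, which shortens the coding sequence by 36 codons to 174 and keeps the frame. GSTP1-205 is annotated as a retained-intron transcript of 1681 bases. The exon that separates the 2 coding forms also lies within exon 3 of GSTP1-205. It is shown because the shares of the 2 coding forms were not alike in all libraries. It spans chr11:67586104-67586211 on the plus strand (GRCh38) and is given 5′ to 3′.
GSTP1-202 exon 6: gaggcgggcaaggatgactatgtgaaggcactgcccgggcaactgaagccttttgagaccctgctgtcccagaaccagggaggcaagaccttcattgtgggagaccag

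GSTP1-202 took 47.8%, 49.5%, 49.5%, 60.0% and 56.4% of the gene's reads from 100:0 to 0:100. The form without exon 6, GSTP1-201, took 29.7%, 28.4%, 28.5%, 22.5% and 24.0%. GSTP1-205 took 22.3%, 21.9%, 21.7%, 17.3% and 19.2%. Shares were alike in the 3 libraries with at least 50% NCI-H1975 RNA, and the step came between 50:50 and 25:75, where Wilson intervals, which cover counting error only, did not overlap for any of the 3. The test that uses the scatter between libraries did not call usage of GSTP1 (edgeR Simes adjusted p = 1). The 25:75 library, not the 0:100 library, had the highest share of GSTP1-202, so the shares did not run in order. All 3 transcripts rose, GSTP1-202 by a slope of 1.19, GSTP1-205 by 0.57 and GSTP1-201 by 0.50 (edgeR quasi-likelihood test, adjusted p = 2.27e-06, 0.00371 and 0.00724). The submitters' notes name Salmon without its role, and only 2 deposited values were not whole. How reads that match several transcripts were divided is not known, so shares of similar transcripts are uncertain.

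**Figure D3:**
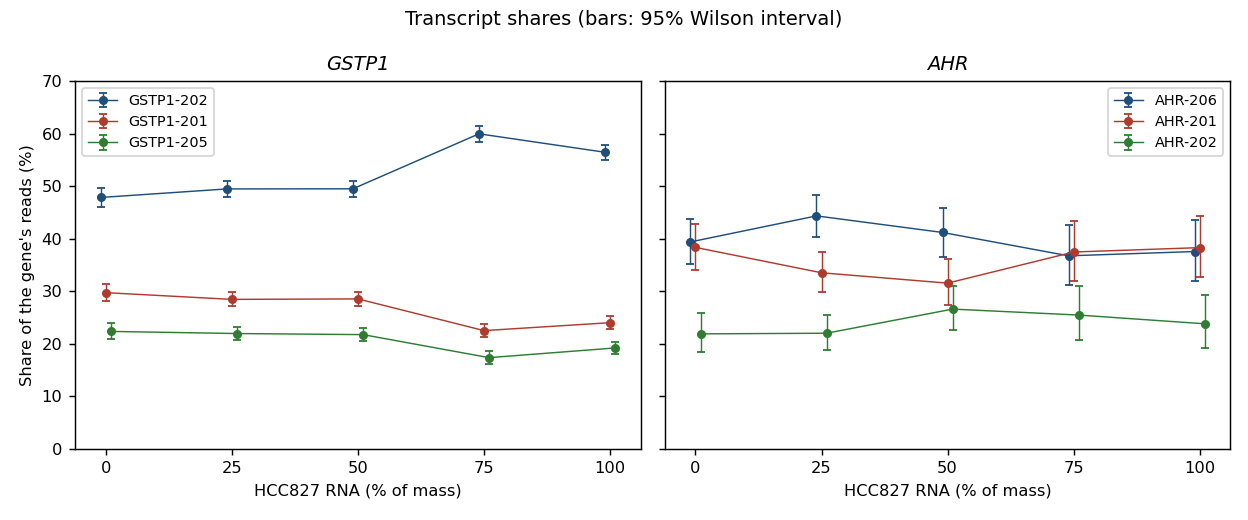
Share of the gene's reads (y axis, %, from 0) taken by the 3 tested transcripts of GSTP1 (left) and AHR (right) against the HCC827 share of RNA mass (x axis, %), with 95% Wilson intervals. GSTP1-202 stepped from 49.5% at 50:50 to 60.0% at 25:75, and the intervals of AHR-206 and of AHR-202 overlapped between the pure libraries.

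Of the 70 transcripts of the 10 genes in the tables, 43 had reads and 18 were tested. Of these, 5 rose and 3 fell (AHR-206, AHR-201 and CYP1B1-205), against 33.6% of 31758 transcripts that passed in either direction. Isoform usage could be tested in 5 genes. It was called in 0 of them by edgeR diffSpliceDGE with Simes p-values, with 0 at an unadjusted p under 0.05, against 0.416% of 7456 genes. The gene-level F test reached an unadjusted p under 0.05 in 1 gene, GSTP1, at an edgeR adjusted p = 0.258.

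GSTM3 and GSTA4, transferases of the mu and alpha classes, were low, and neither passed the test. GSTM3 (ENSG00000134202.12, chromosome 1, 109733932 to 109741038) had 42, 42, 52, 29 and 31 reads, or 12.4, 9.74, 13.4, 10.1 and 11.5 CPM. Its slope was -0.047 ± 0.34 (SE, adjusted p = 0.922), and all counting intervals overlapped. GSTM3 shares sequence with its neighbours GSTM1, GSTM2, GSTM4 and GSTM5, so its reads may be divided among them. GSTA4, which acts on the lipid peroxidation product 4-hydroxynonenal (ENSG00000170899.11, chromosome 6, 52977948 to 52995304), had 19, 21, 25, 22 and 24 reads. Its levels of 5.60, 4.87, 6.42, 7.70 and 8.93 CPM gave a slope of 0.82 ± 0.43 (SE, adjusted p = 0.133). The slope of GSTA4 was near that of GSTP1, with an SE more than 4 times as wide, so a difference of that size was not detectable at this depth.

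EPHX1, the microsomal epoxide hydrolase that converts P450-made epoxides to diols, was higher in HCC827 (ENSG00000143819.13, chromosome 1, 225810124 to 225845563, plus strand). It had 131, 263, 259, 189 and 228 reads, or 38.6, 61.0, 66.5, 66.1 and 84.9 CPM. The 100:0 library lay below the others, the 3 mixed libraries overlapped, and the pure libraries differed 2.20-fold (95% interval 1.76 to 2.74). EPHX1 rose (fitted slope 0.91, SE 0.19, edgeR adjusted p = 0.00179). The slope was 0.58 without the 100:0 library (edgeR adjusted p = 0.0326) and 0.50 under library totals (edgeR adjusted p = 0.0397). The call was lost when libraries were set 2 against 2 (group difference 0.59, edgeR adjusted p = 0.118). EPHX1-202 held from 88.5% to 96.5% of the gene's reads. TMEM63A, which overlaps its last 28 bases on the opposite strand, had 404 reads and a slope of 2.29 ± 0.27.

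Per kilobase of mean transcript length, the order of the 10 genes differed between the lines. In both pure libraries GSTP1 was first, at 914 CPM per kilobase at 100:0 and 1788 at 0:100, far above the rest. At 100:0 it was followed by AHR (22.9), EPHX1 (21.9) and CYP1B1 (16.6). The counting interval of EPHX1 overlapped that of AHR and that of CYP1B1. At 0:100 the order was EPHX1 (47.8), AHR (16.3) and CYP2S1 (14.3), the last 2 overlapping. CYP1B1 went from 4th to 8th place and CYP2S1 from 9th to 4th. TIPARP, GSTM3 and GSTA4 lay between 3.95 and 7.33 CPM per kilobase in the pure libraries, and AHRR and CYP1A1 were under 0.87. This order depends on the division by length. In CPM without that division, AHR was above EPHX1 in both pure libraries. The values were 142 against 38.6 CPM at 100:0, and 100 against 84.9 at 0:100, where the counting intervals overlapped. The places of CYP1B1 changed too. In CPM it was above EPHX1 at 100:0 (85.5 against 38.6). At 0:100 its 11.9 CPM was above GSTM3 (11.5) and GSTA4 (8.93), with overlapping counting intervals.

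Other genes of the receptor's complex mostly fell or did not pass. Of 16 listed partners 15 were tested, and 1 rose and 7 fell, with a median slope of -0.86 against -0.035 over all genes. Over all genes tested 23.5% rose and 22.3% fell, and these shares stand beside the counts of each list below. HSP90AA1, the stress-inducible HSP90, fell from 2856 to 916 CPM (fitted slope -1.58, SE 0.13, edgeR adjusted p = 3.2e-06). HSP90AB1, also an HSP90 on the list, did not pass (slope 0.21, edgeR adjusted p = 0.104). It had 1198 CPM at 100:0 and 1369 at 0:100, where it was above HSP90AA1. NCOA7, a nuclear receptor coactivator, fell with a slope of -1.17, a call lost 2 against 2 (adjusted p = 0.0728). SRC, a tyrosine kinase found with the cytosolic complex, was the gene that rose, with a slope of 1.28. The dimer partner ARNT had 73 and 41 reads in the pure libraries and a slope of -0.61 ± 0.26 (SE, adjusted p = 0.0722). Under library totals 12 of the 15 fell and 1 rose, with ARNT (adjusted p = 0.00519) among the 12. With the length trend removed 7 fell and 2 rose, and the median slope was -0.50. In the 2 against 2 comparison 4 fell and 1 rose.

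Other established targets of the receptor moved in both directions. Of 17 listed, 11 were tested, and 5 rose and 2 fell, with a median slope of -0.023 and a mean of 0.15; under library totals 4 rose and 5 fell. IL1B, an inflammatory cytokine, rose with a slope of 1.51, and EREG, an EGF family ligand, with 1.40. NEDD9, a focal adhesion scaffold, fell with a slope of -1.13. NQO1, a quinone reductase that NRF2 also controls, rose from 184 to 313 CPM (fitted slope 0.79, SE 0.11, edgeR adjusted p = 1.29e-04). ALDH3A1 had 1, 3, 0, 0 and 0 reads. IL1B did not pass under library totals, in the 2 against 2 comparison or without the 100:0 library. NEDD9 lost its call in the 2 against 2 comparison (adjusted p = 0.0538) and without the 0:100 library (adjusted p = 0.0699). The slope of NQO1 was 0.38 under library totals, where it still passed.

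Most other xenobiotic P450s were scarcely detected. Of 32 listed P450s of families 1 to 4 and their electron donors, 8 had 0 reads, 11 were tested, 3 rose and 3 fell, with a median slope of -0.22. Under library totals 3 rose and 4 fell, with a median of -0.63. CYP4B1, a P450 of lung epithelium, rose with a slope of 3.53 from 1 to 28 reads. CYP2J2, an arachidonic acid epoxygenase, rose with 2.94 from 2 to 23 reads. CYP2C19 fell with a slope of -3.27 from 25 reads to 0. Slopes of genes with 0 reads at one end depend on the prior count of the fit and are no bound on the fold. CYP4B1 and CYP2C19 did not pass 2 against 2 (adjusted p = 0.0507 and 0.0636).

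Among 21 other glutathione transferases, 11 were tested, and 1 rose and 4 fell, with a median slope of -0.38. Under library totals 1 rose and 6 fell, with a median of -0.78. GSTT2 and GSTT2B fell from 30 and 39 reads to 0, with slopes of -3.09 and -2.96; these near-identical copies may have had each other's reads assigned to them. GSTT2B did not pass 2 against 2 (adjusted p = 0.0716), and its slope was -4.46 without the 100:0 library and -1.95 without the 0:100 library. GSTO2, an omega-class transferase, fell with a slope of -2.12. Of 39 other hydrolases, reductases and conjugating enzymes, 19 were tested, and 7 rose and 8 fell, with a median slope of -0.47; under library totals 3 rose and 8 fell. Of the relatives of EPHX1, EPHX3 fell with a slope of -3.52 from 20 reads to 0, and EPHX4 rose with 3.08 from 0 to 20. The EPHX4 call was lost without the 100:0 library (adjusted p = 0.051), without the 0:100 library (adjusted p = 0.121) and 2 against 2 (adjusted p = 0.148). AKR1C2, a hydroxysteroid dehydrogenase similar in sequence to AKR1C1, fell with -2.61. Its call was lost 2 against 2 (adjusted p = 0.0511) and without the 0:100 library, where the slope was -1.70 (adjusted p = 0.0679).

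Of 9 efflux transporters 7 were tested, and 3 rose and 0 fell, with a median slope of 0.97. Over all genes tested 45.8% passed, 23.5% rising and 22.3% falling. ABCC2 rose with a slope of 3.01 from 1 to 58 reads, ABCC3 with 1.94 from 93 to 302 reads, and ABCC4 with 0.97 from 32 to 62 reads. These export glutathione, glucuronide and sulphate conjugates. Under library totals 2 of the 3 passed. ABCC4 was the one that did not, and it also failed without the 100:0 library and without the 0:100 library. In the 2 against 2 comparison only ABCC3 passed (adjusted p = 0.0352), and ABCC2, with an adjusted p = 0.0543, did not. Without the 100:0 library the slope of ABCC2 was 2.00, and it passed.

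**Figure D4:**
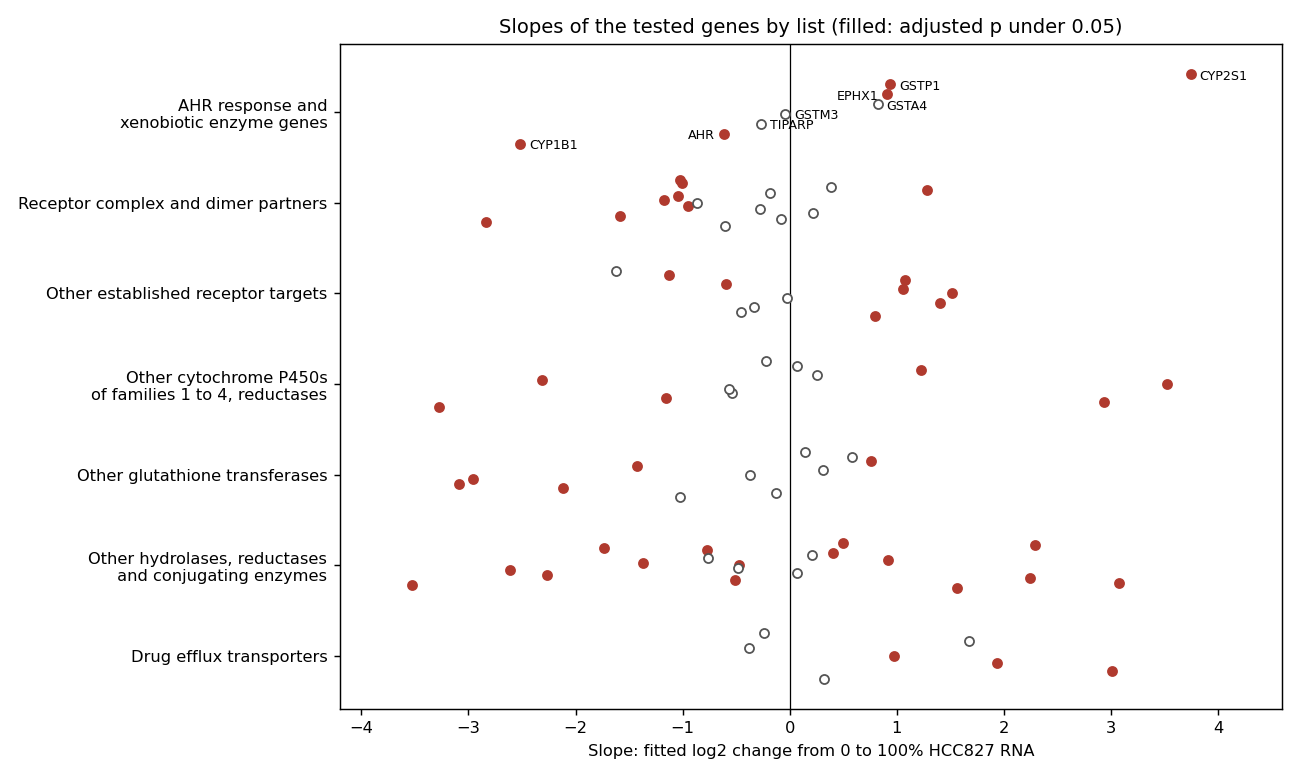
Slope on the HCC827 RNA fraction (x axis, fitted log2 change from 0 to 100%) of each tested gene, by list (y axis); filled points have an adjusted p under 0.05 and open points do not. Of the 10 genes described here, CYP1B1 lies lowest at -2.52 and CYP2S1 highest at 3.74, and the lists spread to both sides of 0.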

How the data were processed

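The authors deposited 1 table per library with transcript identifiers, transcript lengths in bases and estimated counts of reads, not scaled. The submitters' processing notes name minimap2 2.24, Salmon 1.9.0 and GRCh38 without their roles; the annotation release is not given in the sources used here. Of the values, 2 were not whole and were rounded, and 161 identifiers listed a second time were summed. Human identifiers were matched to GENCODE v44 (GRCh38), and 224076 of 227911 identifiers matched.

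Gene sums were tested along the HCC827 mass fraction with edgeR 4.0.16 (glmQLFit and glmQLFTest, R 4.3.3), TMM scaling, a minimum of 10 reads in 2 or more libraries, and Benjamini-Hochberg adjustment at 0.05. Each SE was derived from the slope and its F statistic. Isoform usage was tested with diffSpliceDGE. Alternatives used DESeq2 1.42.0, limma 3.58.1, other scalings, filters and subsets of libraries. Scripts were tested on simulated data. Reads carry no molecular identifiers, so intervals cover counting error only, and a count of 0 allows up to 3 reads.

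The genes and lists were chosen with earlier results of these data known. From each list the 3 genes with the largest slopes among those called with at least 50 reads are named, with ARNT, NQO1 and ALDH3A1; genes that overlap or relate to a described gene were added after their values were seen. Some genes that these rules name are not reported here. GSTT1 was not matched in the annotation.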

Additional observations from a re-analysis of the deposited data

How the results depend on the processing

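Of the 8 tested genes, 5 passed in the reported test and 4 to 6 in each alternative except the 2 against 2 comparison, which gave 3 (CYP1B1, CYP2S1 and GSTP1) and 2291 genes in all, against 6175. Fits that each left out 1 library called the same 5 genes every time, and from 4067 to 5859 of all genes; the lowest came without the 0:100 library. Library totals moved the share of rising calls from 51.3% to 26.2%. The slope of GSTM3, which was not called, turned positive when the 100:0 library (0.15) or the 25:75 library (0.044) was left out, with a range of -0.20 to 0.15 over the fits that each left out 1 library. The log2 ratio of AHRR between the pure libraries, on 4 and 1 reads with counts under 3 taken at 3, was -0.079; it turned to 0.34 with a floor of 10 reads and with protein-coding transcripts only, where both libraries stood at the floor. Depending on the setting, 2 to 5 of the 10 genes could be tested for isoform usage, and 0 were called. Of all genes, from 5198 to 7456 were tested and 5 to 62 called. Causes were not tested. No paired analysis was possible because each ratio had 1 library. AHRR, CYP1A1, GSTM3 and GSTA4 had from 22 to 196 reads over all 5 libraries, and the first 2 had too few for the test.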

Other observations

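CYP2S1 lies 11684 bases before AXL, a receptor tyrosine kinase gene on the same strand of chromosome 19, and the neighbours moved in opposite directions along the series. AXL fell from 69 to 9 reads (fitted slope -2.39, SE 0.36, edgeR adjusted p = 1.97e-04). EGLN2, the nearest tested protein-coding gene on the other side at 384776 bases, rose from 41 to 232 reads with a slope of 2.47.

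The genes with the profile most like CYP2S1 and CYP1B1 were found among 11016 genes with at least 100 reads, by the Euclidean distance between the 5 TMM-scaled CPM values divided by their sum. For CYP2S1 they included ST6GALNAC1, which adds sialic acid to mucin-type glycans (distance 0.0414; 0, 22, 42, 35 and 70 reads) and the mitochondrial pseudogene MTCO2P22 (0.0633). For CYP1B1 they were PCLO (0.00743), ABHD15 (0.0106) and ANXA8 (0.0120), with slopes from -2.43 to -2.40. All profiles come from the same 5 libraries and are given as a description.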
